A study of Homo sapiens with 24 samples.

Results

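The genes described here encode the subunits of NF-kB and the proteins that hold it in check: NFKB1, NFKB2, RELA, RELB and REL for the subunits, NFKBIA, NFKBIE, TNFAIP3 and TNIP1 for the inhibitors, and BCL3 for a nuclear partner of NF-kB. They were chosen by symbol, as all probes that are not controls and carry one of these names on the array. All 10 genes were found among 36337 names, with 11 probes, of which RELA has 2. On each of the 24 arrays all 11 were well above background, with no saturated spot, so every member passed the filter on dim probes. HT29 cells, an established line, come from a human adenocarcinoma of the colon. Cells were left untreated (NT), or received for 6 h C3/C2 (30 mM propionate with 15 mM acetate), SN (a propionibacterial culture supernatant, diluted to 1/2), TRAIL (100 ng/ml, a ligand of death receptors, given with 2 µg/ml of the anti-Flag M2 antibody), TRAIL+C3/C2 or TRAIL+SN. Each group had 4 arrays, 24 in all, which the methods trace to 2 independent experiments with duplicates, so that n = 4 stands for 2 experiments in each group. The antibody was given with TRAIL, and the series has no group labelled as given the antibody alone or unfermented medium. The measurements come from 1 cell line at 1 time, so they describe mRNA in HT29 cells at 6 h and hold nothing on protein or on the place of NF-kB in the cell.

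NF-kB proteins form dimers that IkB proteins such as the products of NFKBIA and NFKBIE keep in the cytoplasm. Ligands of the TNF family lead to the phosphorylation and loss of IkB, after which dimers that contain RELA or REL enter the nucleus, and a slower branch processes the NFKB2 precursor into a partner of RELB. Several genes of the pathway are themselves targets of NF-kB, so that IkB proteins, the ubiquitin-editing enzyme encoded by TNFAIP3 and its binding partner TNIP1 are made again as NF-kB acts and close a negative feedback loop. In the colon epithelium this loop is known to limit inflammatory and death signals.

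Values are the log2 intensity of a probe relative to the 75th percentile of its array, called the log2 level, and a difference is a difference of log2 levels between group means. A gene was called when its difference was at least 2-fold with an adjusted p under 0.05 in a limma fit over all 24 arrays and 20703 genes. Levels of different genes come from different probes and were not compared with each other. NT replicate 1 and C3/C2 replicate 1 lay on slide 1, which was scanned apart from the others, and the other NT and C3/C2 arrays on slide 2. SN and TRAIL shared slide 3, and both co-treatments shared slide 4. Hence C3/C2 against NT, TRAIL against SN, and one co-treatment against the other were compared within slides, while for every other comparison slide and treatment cannot be told apart. The 75th percentile of intensity fell between 745 and 1009 in NT and between 453 and 546 in the co-treatments, and relative to the E1A spike-in RNA (log2) it averaged -2.42 in NT against -3.13 in TRAIL+C3/C2. Scaling to the array median, as in the table the authors deposited, moved the median difference of all genes in TRAIL+C3/C2 minus NT from 0.10 to -0.25, and scaling to the spike-in moved it to -0.62. Any pair of arrays from the same group had a correlation of 0.993 to 0.998 over the genes, which do not count as independent replicates.

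The colon label was checked on markers. All 10 epithelial markers, EPCAM, KRT20 and CDX2 among them, lay well above background on all 24 arrays, with a summed level of 722 to 1120 times the 75th percentile. Of 9 markers of other cell types, 5 had a probe well above background on all 24 arrays and COL3A1 on none. Their summed level was 2.14 to 2.72 in NT and 2.04 to 2.69 in TRAIL. In C3/C2 it was 4.47 to 5.25, and with TRAIL added 4.62 to 5.61. In SN it was 4.95 to 6.20, and with TRAIL added 5.02 to 6.79. The sum of the other markers was thus higher in the groups that received C3/C2 or SN, and the epithelial sum in those that received TRAIL. The part of either sum in the changes described below was not tested.

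Because several genes of the pathway are known targets of NF-kB, the promoters were read first. RefSeq promoters on GRCh38.p14 were at hand for 8 of the 10 genes, with 13 starts, and none for RELB and NFKBIE. In the 250 bases before each start, the κB consensus was searched on both strands. At least 1 match was found at 7 of the 13 starts and in 6 of the 8 genes, and neither start of RELA nor that of BCL3 had one. Of all 35116 promoters in the table, 9.96% held a match in the same window, and of all 27305 genes 11.8% had one. More than 1 separate match was found in the windows of NFKB2 and TNFAIP3, in 0.795% of all promoters and in 0.974% of all genes. The windows that follow are those of the genes with a match, 1 start each, shown because they hold a match. Each is written on the strand of the gene and ends at the base before the start, and capitals mark the matches to the consensus. They lie at chr4:102501109-102501358 (plus strand) for NFKB1, chr10:102394328-102394577 (plus) for NFKB2, chr2:60881324-60881573 (plus) for REL, chr14:35404750-35404999 (minus) for NFKBIA, chr6:137867009-137867258 (plus) for TNFAIP3 and chr5:151081035-151081284 (minus) for TNIP1.
NFKB1: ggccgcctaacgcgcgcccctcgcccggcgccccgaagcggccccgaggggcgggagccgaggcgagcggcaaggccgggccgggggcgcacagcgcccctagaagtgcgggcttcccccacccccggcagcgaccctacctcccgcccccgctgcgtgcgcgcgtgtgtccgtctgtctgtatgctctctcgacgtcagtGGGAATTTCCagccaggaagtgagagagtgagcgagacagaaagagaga
NFKB2: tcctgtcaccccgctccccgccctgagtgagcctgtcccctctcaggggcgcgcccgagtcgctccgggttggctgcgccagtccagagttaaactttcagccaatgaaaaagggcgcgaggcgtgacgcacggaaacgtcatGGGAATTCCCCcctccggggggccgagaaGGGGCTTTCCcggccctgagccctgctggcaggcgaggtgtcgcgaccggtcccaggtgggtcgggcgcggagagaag
REL: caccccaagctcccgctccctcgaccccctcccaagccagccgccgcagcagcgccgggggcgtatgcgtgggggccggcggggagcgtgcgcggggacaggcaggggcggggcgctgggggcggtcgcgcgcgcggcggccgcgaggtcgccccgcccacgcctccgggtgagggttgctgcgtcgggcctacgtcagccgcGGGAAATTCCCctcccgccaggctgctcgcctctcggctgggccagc
NFKBIA: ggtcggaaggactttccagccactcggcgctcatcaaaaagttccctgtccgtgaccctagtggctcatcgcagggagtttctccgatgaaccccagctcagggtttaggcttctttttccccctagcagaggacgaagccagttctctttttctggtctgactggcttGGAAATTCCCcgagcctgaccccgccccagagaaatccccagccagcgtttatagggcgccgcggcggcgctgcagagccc
TNFAIP3: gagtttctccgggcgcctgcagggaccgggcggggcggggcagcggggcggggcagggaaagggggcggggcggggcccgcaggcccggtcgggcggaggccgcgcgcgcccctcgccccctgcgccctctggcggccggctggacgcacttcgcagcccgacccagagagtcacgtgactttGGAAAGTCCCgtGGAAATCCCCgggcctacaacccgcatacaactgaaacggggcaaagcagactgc
TNIP1: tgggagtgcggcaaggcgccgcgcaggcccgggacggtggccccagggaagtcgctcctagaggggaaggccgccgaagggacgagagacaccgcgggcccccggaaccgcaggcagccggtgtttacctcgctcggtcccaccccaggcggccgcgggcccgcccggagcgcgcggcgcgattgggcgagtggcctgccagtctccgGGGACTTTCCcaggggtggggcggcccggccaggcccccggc
In NFKB1 the match reads GGGAATTTCC and ends 40 bases before the start. In REL and NFKB2 the capitals join 2 overlapping matches, and NFKB2 has a further one, GGGGCTTTCC, 69 bases before its start. The TNFAIP3 promoter carries 2 matches on the opposite strand, GGAAAGTCCC and GGAAATCCCC, which are 2 bases apart. A match is a description of the letters, and no binding was measured in these samples.

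**Figure D1:**
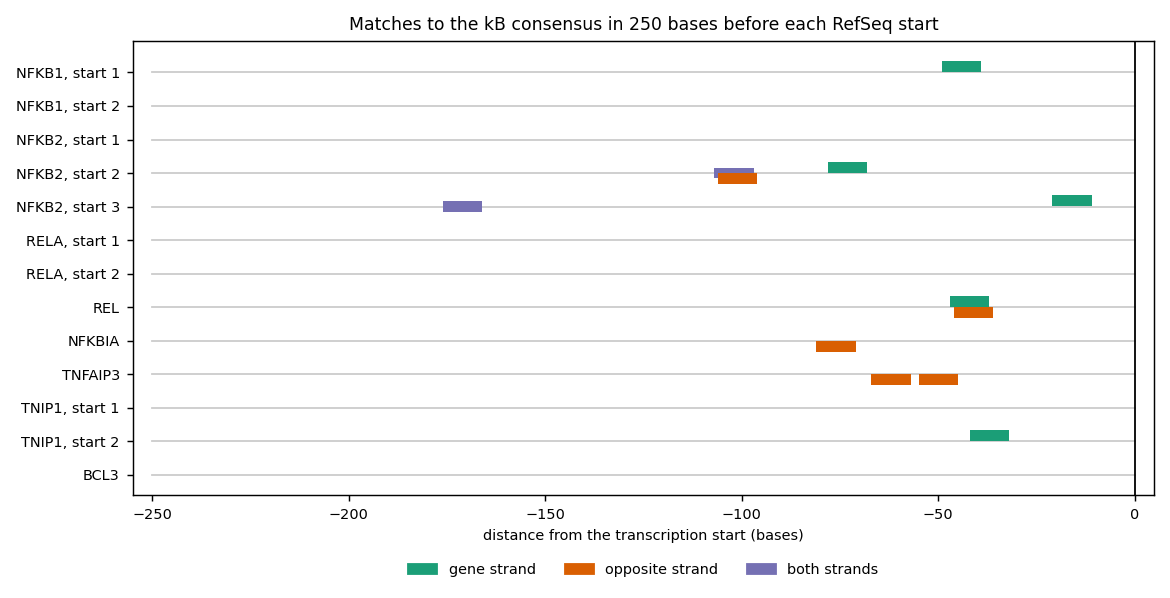
Matches to the κB consensus (coloured blocks) in the 250 bases before each of 13 RefSeq starts of 8 genes, against the distance from the start in bases (x axis). TNFAIP3 has 2 matches side by side, NFKB2 has matches at 2 of its 3 starts, and RELA and BCL3 have none.

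NFKB1, which encodes a subunit that lacks a transactivation domain and acts with RELA or as a dimer with itself, was the single member called lower with C3/C2 and with SN. The probe lies at chr4:103537856-103537915 (hg19, NM_003998) and has 10 spots on each array, whose SD within an array had a median of 0.039 (log2). Its level was 1.49, 1.52, 1.60 and 1.52 in the 4 NT arrays, 0.14, -0.02, -0.02 and 0.02 in C3/C2, and 0.01, -0.06, 0.03 and -0.07 in SN. It was 2.41, 2.47, 2.41 and 2.41 in TRAIL, 0.94, 0.95, 1.04 and 1.07 in TRAIL+C3/C2, and 1.20, 1.14, 1.20 and 1.14 in TRAIL+SN. TRAIL was highest, followed by NT, TRAIL+SN and TRAIL+C3/C2, whose arrays did not overlap, and C3/C2 and SN lay lowest and overlapped. NFKB1 fell by 1.50 ± 0.05 (log2, SE, n = 4 and 4) with C3/C2, a 2.83-fold difference (adjusted p = 1.82e-16), and by 1.55 ± 0.05 with SN (adjusted p = 7.15e-17). SN and C3/C2 overlapped (difference -0.05, 95% interval -0.15 to 0.05). TRAIL alone raised it by 0.89 ± 0.05 (adjusted p = 1.72e-11), a 1.86-fold difference that was not called. In cells given C3/C2, TRAIL added 0.97 ± 0.05, and in cells given SN 1.19 ± 0.05, which was called, though not with spike-in scaling (0.60). In the co-treatments NFKB1 lay below TRAIL by 1.42 and 1.25, which were called, and below NT by 0.53 and 0.36, which were not. The addition of TRAIL in cells given C3/C2 reached the call without C3/C2 replicate 1 (1.00), and with spike-in scaling so did the fall in TRAIL+C3/C2 against NT (-1.25). In bulk RNA, fewer cells that carry a transcript and less transcript per cell cannot be told apart.

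NFKB2, the precursor of the slower branch, was higher than in NT after every treatment. Its probe lies at chr10:104161053-104161229 (hg19). The levels were -1.58, -1.69, -1.79 and -1.34 in NT, -0.42, -0.51, -0.49 and -0.58 in C3/C2 and 0.26, 0.13, -0.06 and -0.11 in SN. They were 0.85, 0.77, 0.83 and 0.69 in TRAIL, 1.23, 1.14, 0.96 and 0.94 in TRAIL+C3/C2, and 1.53, 1.36, 1.11 and 1.23 in TRAIL+SN. All 20 treated arrays lay above all NT arrays, and arrays overlapped between the co-treatments alone. C3/C2 differed from NT by 1.10 ± 0.10 and SN by 1.66 ± 0.10. TRAIL alone gave 2.38 ± 0.10, TRAIL+C3/C2 2.66 ± 0.10 and TRAIL+SN 2.90 ± 0.10, and all 5 differences were called. The call for C3/C2 was lost under the array median (0.80), normexp (0.95) and spike-in (0.92) settings. Against TRAIL alone, NFKB2 differed by 0.28 ± 0.10 in TRAIL+C3/C2 (adjusted p = 0.0191), which turned to -0.16 under array median and spike-in scaling.

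RELB, the partner of processed NFKB2, was the subunit that rose most with TRAIL alone. Its probe is at chr19:45541385-45541444 (hg19). RELB lay at 1.88, 2.16, 2.25 and 2.12 in NT, 2.33, 2.26, 2.61 and 2.51 in C3/C2, and 3.09, 3.04, 3.23 and 3.01 in SN. It lay at 5.04, 5.02, 5.10 and 5.04 in TRAIL, 4.62, 4.67, 4.70 and 4.67 in TRAIL+C3/C2, and 4.91, 4.90, 4.87 and 4.90 in TRAIL+SN. The groups with TRAIL stood apart from those without it, and no array of one set reached the other. TRAIL raised RELB 7.71-fold (2.95 ± 0.08, adjusted p = 1.11e-16), and the co-treatments 5.90-fold and 6.93-fold against NT. With SN alone the difference was 0.99 ± 0.08, a 1.99-fold difference just short of the call, which it reached without NT replicate 2, NT replicate 3, SN replicate 2 or SN replicate 4 (1.01 to 1.04) and with spike-in scaling (1.06). With C3/C2 it was 0.32 ± 0.08. TRAIL+C3/C2 lay 0.38 below TRAIL alone (adjusted p = 0.000135), and TRAIL+SN lay 0.15 below it with an adjusted p of 0.0783. The size of both differences depends on the scaling. For TRAIL+SN minus TRAIL the median of all genes was 0.05, but -0.25 with the array median and -0.20 with the spike-in. For TRAIL+C3/C2 minus TRAIL it was 0.11, -0.34 and -0.33.

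REL, which encodes a transactivating subunit best known from lymphocytes, was called in both co-treatments and in no single treatment. Its probe is at chr2:61149596-61149655 (hg19). NT arrays lay between -0.94 and -0.65, those of C3/C2, SN and TRAIL between -0.55 and -0.26, those of TRAIL+C3/C2 between 0.17 and 0.34, and those of TRAIL+SN between 0.34 and 0.57. Each single treatment differed from NT by 0.35 to 0.40, and neighbours among the 3 did not differ beyond their spread. The rise was 1.04 ± 0.07 in TRAIL+C3/C2 (2.06-fold, adjusted p = 1.57e-11) and 1.23 ± 0.07 in TRAIL+SN (2.35-fold). The value for TRAIL+C3/C2 stood close to the threshold, at 0.99 without NT replicate 1, 0.96 with quantile and 0.94 with normexp processing, 0.70 with the array median and 0.33 with the spike-in, and none of these was called. That for TRAIL+SN was 0.71 with the spike-in and not called.

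RELA, the main transactivating subunit of the fast branch, was called in no comparison. The probe that represents it, at chr11:65421651-65421710 (hg19) with 10 spots on each array, lay between 1.34 and 1.83 on all 24 arrays. Its largest difference from NT was 0.38 ± 0.05 with TRAIL (1.31-fold, adjusted p = 6.37e-06). With C3/C2 and TRAIL+C3/C2 the differences were 0.07 and 0.07 with adjusted p of 0.268 and 0.215, and both turned to -0.24 and -0.28 under the array median. The other probe, at chr11:65421986-65422045, gave 0.54 ± 0.05 with TRAIL and 0.23 ± 0.05 with TRAIL+C3/C2, and no call either. In 4 comparisons, TRAIL+C3/C2 minus NT among them, 1 probe alone had an adjusted p (over all probes) under 0.05, and the probes were not tested against each other. TRAIL+SN minus TRAIL was -0.06 (adjusted p = 0.298) at the first and -0.22 (adjusted p = 0.000702) at the other. TRAIL+C3/C2 minus C3/C2 was 0.01 (adjusted p = 0.946) and 0.24 (adjusted p = 0.00112), and TRAIL+SN minus TRAIL+C3/C2 was 0.25 (adjusted p = 0.000526) and 0.09 (adjusted p = 0.186).

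**Figure D2:**
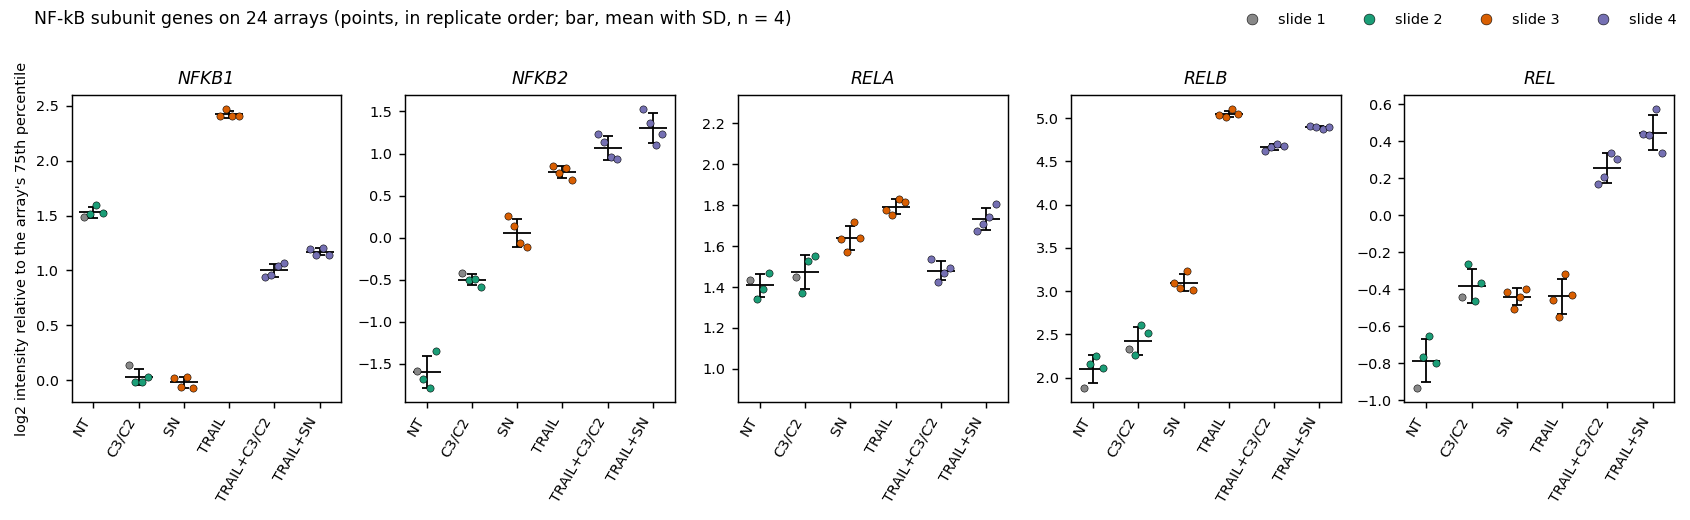
Log2 level of the 5 subunit genes on each of 24 arrays (points, coloured by slide), with the mean and SD of each group of 4 (bars). Each panel has its own y axis. NFKB1 is lowest in C3/C2 and SN, RELB is high in the 3 groups with TRAIL, and RELA stays between 1.34 and 1.83.

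NFKBIA encodes the IkB protein that is resynthesised first after NF-kB acts, and it was the member in which C3/C2 and SN parted. Its probe lies at chr14:35870788-35870847 (hg19), with 10 spots on each array and a median SD between spots of 0.028. NFKBIA lay at 2.39, 2.27, 2.44 and 2.33 in NT, 3.44, 3.33, 4.06 and 4.02 in C3/C2, and 1.99, 1.98, 2.15 and 2.08 in SN. All C3/C2 arrays were above and all SN arrays below those of NT. In TRAIL it lay at 3.92, 3.96, 4.23 and 4.25, in TRAIL+C3/C2 at 5.60, 5.60, 5.81 and 5.83, and in TRAIL+SN at 5.22, 5.18, 5.27 and 5.24. C3/C2 raised it 2.56-fold (1.35 ± 0.13, adjusted p = 6.43e-09), and within slide 2 alone, with 3 arrays against 3, by 1.45 ± 0.20. With SN the difference from NT was -0.31 ± 0.13 (adjusted p = 0.0354), not called. The direct difference, SN minus C3/C2, was -1.66 ± 0.13, a 3.17-fold difference (adjusted p = 3.04e-09) across slides. TRAIL raised NFKBIA 3.31-fold, TRAIL+C3/C2 10.2-fold and TRAIL+SN 7.30-fold against NT. In cells given SN, TRAIL raised it by 3.18 ± 0.13, a 9.05-fold difference, against 2.00 ± 0.13 in cells given C3/C2. TRAIL+SN lay 0.48 ± 0.13 below TRAIL+C3/C2 on the same slide (adjusted p = 0.00489, not called).

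NFKBIE encodes IkB-epsilon, a slower relative of the NFKBIA product, and it rose after all 5 treatments. Its probe is at chr6:44226558-44226617 (hg19). NT arrays lay at 1.00 to 1.15, those of C3/C2 at 2.52 to 2.60 and those of SN at 2.80 to 2.97. TRAIL arrays lay at 3.17 to 3.23, and the co-treatments at 4.09 to 4.20 with C3/C2 and 4.36 to 4.39 with SN. No 2 groups overlapped, and each step in this order had an adjusted p under 0.05, though the step from SN to TRAIL (0.29) turned to -0.06 with spike-in scaling. The rises over NT were 2.74-fold, 3.49-fold, 4.26-fold, 8.15-fold and 9.70-fold in that order, each with an SE of 0.05 on the log2 scale. TRAIL+SN lay above TRAIL by 1.19 ± 0.05, which was called, and TRAIL+C3/C2 by 0.94 ± 0.05, which was not.

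TNFAIP3, whose product edits ubiquitin chains on signalling proteins and stops NF-kB activation, had the largest rise of the 10 genes with both co-treatments, with SN and with C3/C2, and followed RELB with TRAIL. Its probe is at chr6:138203679-138203738 (hg19). The levels were -3.68, -3.69, -3.64 and -3.87 in NT, -1.98, -1.93, -2.09 and -2.00 in C3/C2 and -1.48, -1.85, -1.76 and -1.75 in SN. They were -0.85, -0.73, -1.13 and -0.61 in TRAIL, 1.46, 1.57, 1.46 and 1.50 in TRAIL+C3/C2, and 1.92, 1.89, 1.77 and 1.69 in TRAIL+SN. In intensity, NT arrays read 58.2 to 80.7 and TRAIL+SN arrays 1761 to 1885, and the probe was well above background on all 24 arrays. The groups did not overlap, in the order in which they are listed. C3/C2 raised TNFAIP3 3.30-fold (1.72 ± 0.09), SN 4.02-fold (2.01 ± 0.09) and TRAIL 7.41-fold (2.89 ± 0.09). The rise was 37.2-fold in TRAIL+C3/C2 (5.22 ± 0.09, adjusted p = 2.75e-20) and 46.4-fold in TRAIL+SN (5.54 ± 0.09, adjusted p = 1.52e-20). It stood 5.03-fold above TRAIL in TRAIL+C3/C2 and 6.26-fold in TRAIL+SN. In the co-treatments, SN stood 0.32 ± 0.09 above C3/C2 (adjusted p = 0.0107), which was not called.

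TNIP1 binds the TNFAIP3 product and ubiquitin chains. Its probe is at chr5:150409766-150409825 (hg19). NT arrays lay at 3.20 to 3.32, C3/C2 arrays at 3.46 to 3.59 and SN arrays at 3.75 to 3.94. TRAIL arrays lay at 4.71 to 4.86, with the co-treatments at 4.41 to 4.62 for C3/C2 and 4.50 to 4.69 for SN. Like RELB, TNIP1 was higher in the groups with TRAIL than in those without. It rose 2.81-fold with TRAIL, 2.36-fold with TRAIL+C3/C2 and 2.54-fold with TRAIL+SN, all called. Both co-treatments lay below TRAIL, by 0.25 ± 0.06 (adjusted p = 0.00158) and 0.14 ± 0.06 (adjusted p = 0.0491). With C3/C2 the difference from NT was 0.26 ± 0.06, which was -0.04 under array median scaling. In TRAIL+C3/C2 the rise was not called with the array median (0.89) or the spike-in (0.53), nor in TRAIL+SN with the spike-in (0.82).

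BCL3 encodes a nuclear member of the IkB family that acts with dimers of the NFKB1 and NFKB2 products. Its probe is at chr19:45263191-45263250 (hg19). NT arrays lay at 2.36 to 2.61, C3/C2 arrays at 3.35 to 3.53 and SN arrays at 3.31 to 3.73. TRAIL arrays lay at 4.16 to 4.67, with the co-treatments at 4.97 to 5.19 for C3/C2 and 4.90 to 5.18 for SN. The rise over NT was 2.09-fold with SN (1.07 ± 0.11), 3.64-fold with TRAIL, 6.01-fold with TRAIL+C3/C2 and 5.90-fold with TRAIL+SN. With C3/C2 it was 0.98 ± 0.11, a 1.97-fold difference that was not called, and it reached the call without NT replicate 3 (1.01) or C3/C2 replicate 2 (1.02). The call for SN was lost with the array median (0.94). The co-treatments overlapped (-0.03, 95% interval -0.26 to 0.21), as did SN and C3/C2 (0.09, 95% interval -0.14 to 0.32).

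**Figure D3:**
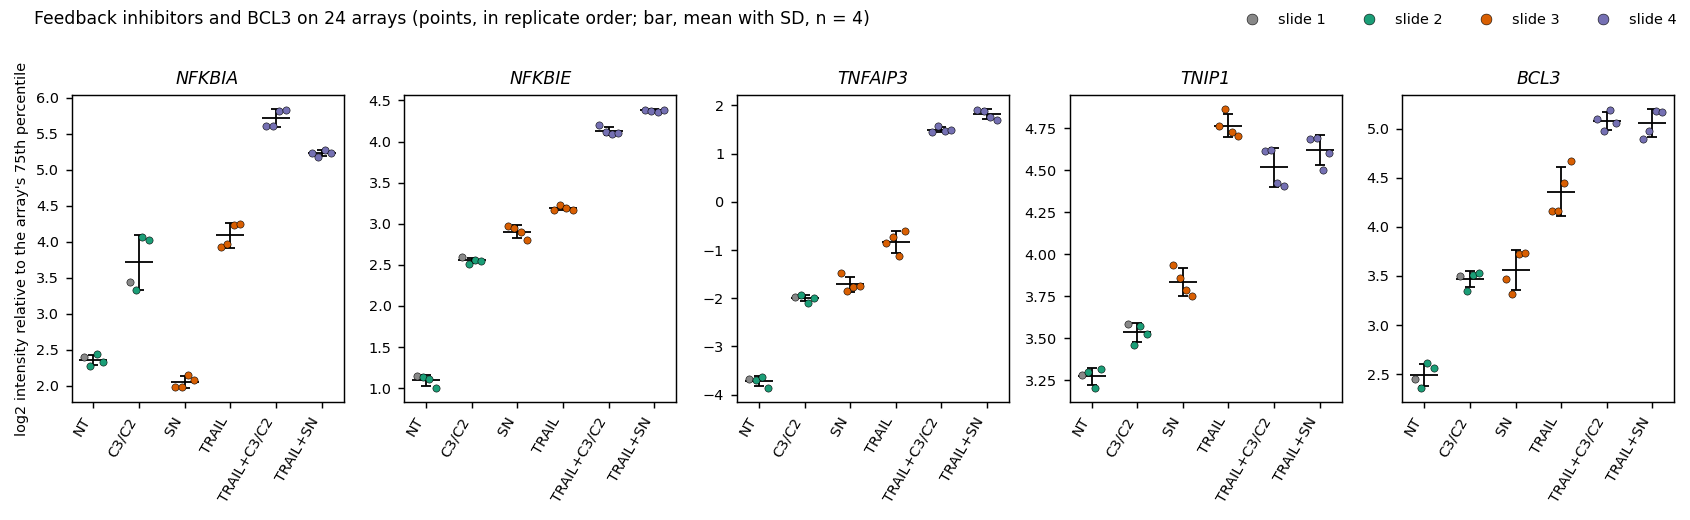
Log2 level of NFKBIA, NFKBIE, TNFAIP3, TNIP1 and BCL3 on each of 24 arrays (points, coloured by slide), with the mean and SD of each group of 4 (bars), each panel on its own y axis. NFKBIA is below NT in SN and above it in C3/C2, and TNFAIP3 climbs from -3.72 in NT to 1.82 in TRAIL+SN.

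The members called were then counted in the 5 comparisons with NT, which share the NT arrays. C3/C2 raised 4 of the 10 members, NFKB2, NFKBIA, NFKBIE and TNFAIP3, where 13.4% of all genes tested were called higher, and lowered NFKB1, where 6.18% were called lower. SN raised NFKB2, NFKBIE, TNFAIP3 and BCL3, 4 of 10 against 14.2% of all genes, and lowered NFKB1, against 9.75%. TRAIL raised 7 of the 10 members, those other than NFKB1, RELA and REL, where 0.749% of all genes, 155 in number, were called higher. TRAIL+C3/C2 and TRAIL+SN each raised 8, the 7 of TRAIL and REL, against 16.2% and 16.1% of all genes, and lowered none. For C3/C2 the median difference from NT was 0.69 over the 10 members and 0.08 over all genes, for SN 0.78 and -0.02, and for TRAIL 1.80 and 0.03. For the co-treatments it was 2.58 and 0.10 with C3/C2, and 2.68 and 0.04 with SN. The balance of calls over all genes moved with the scaling. With the 75th percentile 2784 genes were called higher and 1279 lower with C3/C2, and with the array median 2001 and 2346. For SN these were 2949 and 2018, and 2536 and 2515. TRAIL+C3/C2 had 3364 and 1643 with the first and 2291 and 3136 with the second, and TRAIL+SN had 3323 and 2098, then 2664 and 2869. For TRAIL, the array median gave 207 and 387 in place of 155 and 452. The spike-in gave 83 and 800 for TRAIL, and for the co-treatments 1576 and 5905 with C3/C2 and 1868 and 4935 with SN.

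**Figure D4:**
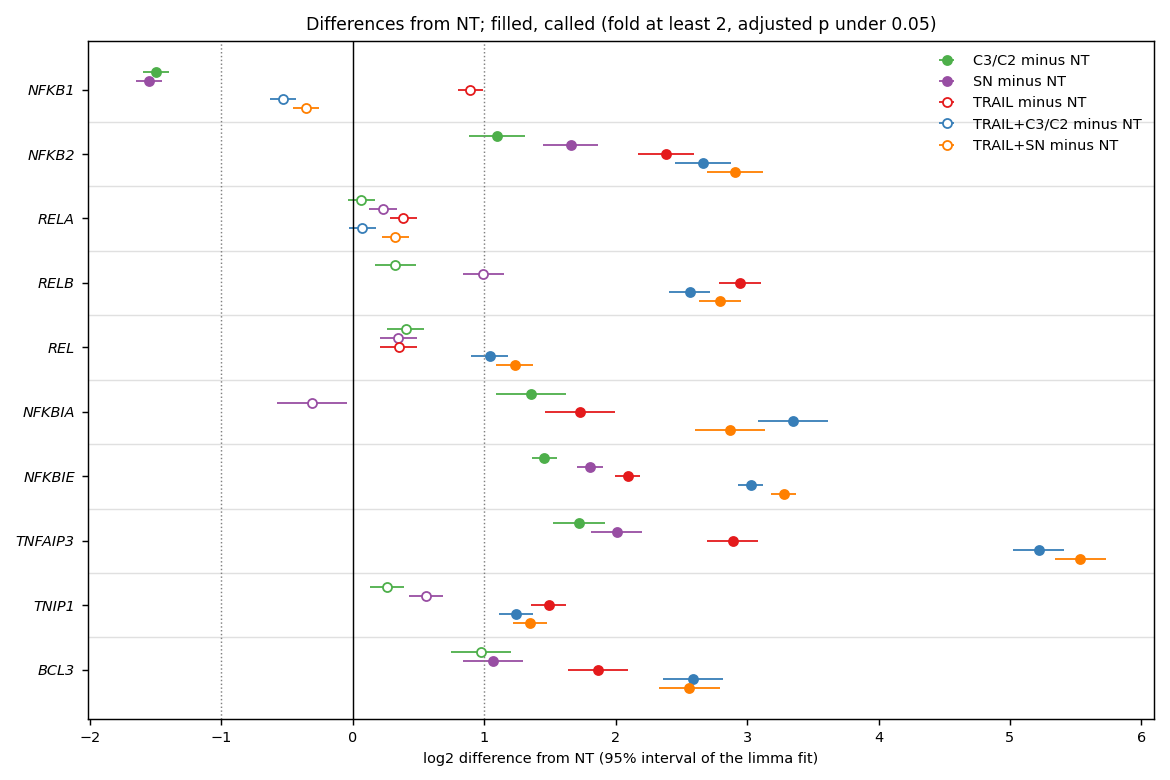
Log2 difference of each member from NT (x axis) in the 5 treatments, with the 95% interval of the limma fit. Filled points were called, open points were not, and dotted lines mark a 2-fold difference. NFKB1 lies left of 0 in 4 treatments, and TNFAIP3 reaches 5.54.

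Against TRAIL alone, TRAIL+C3/C2 raised NFKBIA and TNFAIP3 and lowered NFKB1, 3 of 10 members where 20.9% of all genes were called in either direction. TRAIL+SN raised NFKBIE as well, which made 4 of 10 against 22.4%. In that comparison NFKBIA (1.14) and NFKBIE (1.19) lost the call with the array median (0.84 and 0.89) and with the spike-in (0.89 and 0.93). Seen from the other side, TRAIL raised 6 members in cells given C3/C2, where 1.59% of all genes were called higher, and 7 in cells given SN, where 0.908% were. The 6 were NFKB2, RELB, NFKBIA, NFKBIE, TNFAIP3 and BCL3, and NFKB1 was the further one in cells given SN. TNIP1 gained 0.98 ± 0.06 in cells given C3/C2, just short of the call, which it reached without replicate 3 (1.01) or replicate 4 (1.02) of TRAIL+C3/C2. With spike-in scaling the 7 members called in cells given SN became 3, RELB, NFKBIA and TNFAIP3. Within slide 3, TRAIL stood above SN in NFKB1 (2.45 ± 0.05, 5.45-fold), RELB (1.95 ± 0.08, 3.87-fold) and NFKBIA (2.04 ± 0.13, 4.11-fold), 3 of 10 members where 8% of all genes were called higher. These 3 comparisons were chosen after the values were seen.

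SN was also set against C3/C2, which lay on other slides, and the series has no group labelled as given unfermented medium. An effect of SN beyond its propionate and acetate therefore cannot be told apart from slide or medium. Of the 10 members 1 was called, NFKBIA, where 5.69% of all genes were called. Another 6 were higher with SN at an adjusted p under 0.05 with differences under 2-fold, among them RELB (0.67 ± 0.08) and NFKB2 (0.56 ± 0.10). At that adjusted p, 4496 of the 20703 genes were higher with SN and 5318 lower. Between the co-treatments, on slide 4, limma called none of the 10 members, where 3.53% of all genes were called. At an adjusted p under 0.05 were 7 members and 7789 of the 20703 genes, and 8 members had an unadjusted p under 0.05. The largest difference was that of NFKBIA.

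The co-treatments were then set against the summed log2 differences of the singles, the difference from which is the interaction. With C3/C2, no member was called, where 0.657% of all genes were. At an adjusted p under 0.05 were 6 members and 596 of the 20703 genes, and 7 members had an unadjusted p under 0.05. NFKB2 (-0.81 ± 0.14), RELB (-0.71 ± 0.11), NFKBIE (-0.52 ± 0.07), TNIP1 (-0.51 ± 0.09) and RELA (-0.38 ± 0.07) fell short of the sum, and TNFAIP3 (0.61 ± 0.13) exceeded it. For NFKB1, whose singles sum to -0.60, the measured difference was -0.53 (interaction 95% interval -0.06 to 0.21). With SN, 3 members were called against 3.1% of all genes, and 9 had an adjusted p under 0.05, as did 4794 of the 20703 genes. RELB fell short by 1.15 ± 0.11 (adjusted p = 8.87e-07), with 3.94 as the sum and 2.79 as measured, and NFKB2 by 1.13 ± 0.14 (adjusted p = 2.14e-05), with 4.04 and 2.90. NFKBIA exceeded the sum by 1.45 ± 0.18 (adjusted p = 1.67e-05), with 1.42 as the sum and 2.87 as measured. REL (0.54 ± 0.10), TNFAIP3 (0.64 ± 0.13) and NFKB1 (0.30 ± 0.07) also exceeded the sum below the call, the last not with spike-in scaling (-0.02). NFKBIE, TNIP1 and RELA fell short of it by 0.62, 0.70 and 0.29. A sum on the log2 scale is a product of folds, and slides 1 to 4 all enter these values. With normexp processing the call for NFKB2 was lost (-0.96) and TNFAIP3 gained one with SN (1.01). With spike-in scaling TNIP1 gained one with SN (-1.02) and NFKB2 with C3/C2 (-1.07).

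**Figure D5:**
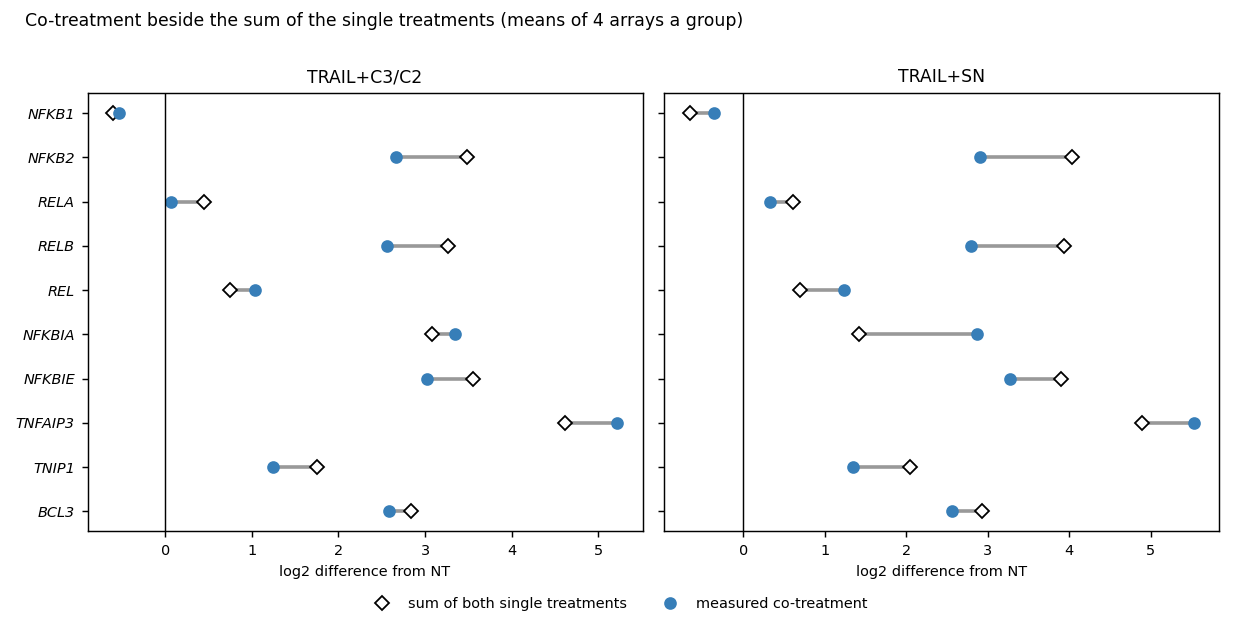
For each member, the log2 difference from NT in the co-treatment (filled circles) beside the sum of the differences of the single treatments (open diamonds), for TRAIL+C3/C2 (left) and TRAIL+SN (right). In TRAIL+SN the circle of NFKBIA lies right of its diamond by 1.45, and those of RELB and NFKB2 lie left by 1.15 and 1.13.

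Other genes of the pathway were taken from 4 lists. Of 31 target genes of NF-kB, mostly chemokines, cytokines and survival genes, 28 were tested, and TRAIL raised 19, TRAIL+SN 21, TRAIL+C3/C2 22, C3/C2 8 and SN 11, beside the shares of all genes given above. One of them, LTB, was called lower, with SN. Their median difference from NT was 1.97 with TRAIL and 3.02, 2.76, 0.63 and 0.68 in the same order. The largest estimated rise was that of CCL20, a chemokine that attracts lymphocytes to mucosa, at 5.67 ± 0.23 for TRAIL alone and 9.96 ± 0.23 and 9.46 ± 0.23 for its co-treatments with C3/C2 and SN. CCL20 was well above background on 2 of the 4 NT arrays, so the size of these rises is uncertain, and with TRAIL the cytokine gene TNF (5.62 ± 0.24) lay within the SE of it. For the other lists the shares of all genes called higher were again 0.749% with TRAIL and 13.4% to 16.2% in the 4 other treatments. Of 16 signal adaptors and kinases tested, 1 rose in each treatment, which for those 4 is below the share of all genes. That gene was IKBKE, a kinase related to the IkB kinases, with TRAIL (1.02 ± 0.18), and MAP3K14, the kinase that starts the slower branch, with the others. C3/C2 changed MAP3K14 by 1.66, SN by 2.00, TRAIL by 0.85 (not called), TRAIL+C3/C2 by 2.56 and TRAIL+SN by 2.70, each ± 0.06. Among those called lower were IKBKE itself, by -1.11 in C3/C2 and -1.64 in SN, TRAF5 in C3/C2 (-1.06) and TRAF3 in SN (-1.12). Of 12 ubiquitin ligases and deubiquitinases, 1 was called in each treatment, which for the 4 other than TRAIL is again below the share of all genes. That gene was BIRC3, a ligase bound to TNF receptor complexes, which rose after all 5 treatments, by 1.90, 2.81, 3.36, 5.02 and 5.62. Of 11 other IkB proteins and modulators tested, TRAIL raised 1, TRAIL+SN 3, TRAIL+C3/C2 4, C3/C2 1 and SN 2, of which the last 2 counts are near the share of all genes. The nuclear IkB protein encoded by NFKBIZ gave 1.78 in TRAIL+C3/C2 and 2.21 in TRAIL+SN, and the RNase encoded by ZC3H12A 1.05 in TRAIL, 1.96 in TRAIL+C3/C2 and 1.67 in TRAIL+SN.

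The members fell into patterns when their levels were correlated over the 24 arrays, which form 6 groups and share slides, so that these values are descriptions. The gene most like RELB, among 14001 named genes, was TNIP1 (r = 0.987), and that most like NFKB2 was NFKBIE (r = 0.968). NFKBIE was most like BIRC3 (r = 0.992), TNFAIP3 most like IL17C (r = 0.990), BCL3 most like TNF (r = 0.980), REL most like NFKBIZ (r = 0.967) and NFKBIA most like CXCL3 (r = 0.966). NFKB1 was most like NUP153 (r = 0.966), followed by PSMB10 and IL4R. With the other 9 members NFKB1 correlated between -0.05 and 0.51. RELA had the lowest best match, MUC5AC with r = 0.888.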

How the data were processed

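Total RNA of 24 cultures of HT29 cells was labelled and hybridised by the authors to Agilent arrays with a single dye. The deposited scanner files hold a spot's intensity after background subtraction by Feature Extraction 10.7.3.1, not normalized between arrays. The authors' own normalized values, read as an alternative, are this intensity over the array median (checked on values of 1 or more, of which 100% were within a relative tolerance of 1e-04). Genome build of the probes was hg19.

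Control and outlier spots were left out, spots of a probe averaged as log2, and each array's 75th percentile over its 58717 gene spots subtracted. Of 50599 probes, 27957 with 0.5 or more of their spots well above background on all 4 arrays of a group were kept, and a gene was its probe with the highest mean. Groups were fitted together with limma 3.58.1 in R 4.3.3 (statmod 1.5.0), with 18 residual degrees of freedom. P values were adjusted (Benjamini-Hochberg) across 20703 genes in each of 14 comparisons. A call needed a 2-fold difference and an adjusted p under 0.05. The median SE of a difference was 0.11, which the number of arrays limits.

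Each group's 4 arrays come from 2 independent experiments, and which arrays belong to which is not given, so the fits count duplicates as replicates and p values may measure technical spread in part. Arrays of the same replicate number deviated together (r = 0.062 to 0.475, over 0.1 in 57 of 60 pairs). In 44 of the 60 the most similar array of the other group had the same replicate number. Every pair was over 0.1 for NT with C3/C2, SN, TRAIL and TRAIL+C3/C2. The fits reported here used no replicate block, so their SEs and p values leave such a pairing out. A replicate block, fitted as an alternative, changed no call of a member.

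The members, lists and marker genes were chosen with earlier results of these data known. Of the lists, the gene with the largest rise or fall among genes called with TRAIL or a co-treatment was named, and for each member the gene most like it. Other pathway genes named have a count of 5 or fewer and were named after their values were seen. Promoters are those of RefSeq. Python 3.11.15 with matplotlib 3.10.9 served for figures. Alternatives were other scalings, background and filters, the authors' table, other fits with replicate or slide as a block, and leaving out each array. Scaling to 7 spike-in probes and 3 comparisons (TRAIL minus SN, and TRAIL within C3/C2 and within SN) were added after the data were seen.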

Additional observations from a re-analysis of the deposited data

Results flagged for a closer look

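In 2 of 66 sets of 4 arrays (11 probes in 6 groups), 1 array stood apart from the other 3 by more than Dixon's limit, which chance alone gives in about 5% of such sets. For NFKB1, TRAIL replicate 2 lay at 2.47 and the others at 2.41, a gap small beside the rise of 0.89 over NT. For the second probe of RELA, NT replicate 2 lay at 0.53 and the others at 0.69 to 0.72.

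The interaction of TRAIL and SN in the limma fit was called in 3 of the 10 members, against 3.1% of all genes. At an adjusted p under 0.05 were 9 members, as were 4794 of the 20703 genes. In the 3 called, the effect of TRAIL was smaller with SN by 1.13 in NFKB2 (interaction -1.13) and by 1.15 in RELB (-1.15), and larger by 1.45 in NFKBIA. With normexp processing NFKB2 was not called (-0.96). SN and TRAIL arrays lay on slide 3, TRAIL+SN on slide 4 and NT on slides 1 and 2, so slide and treatment cannot be told apart in these values.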

How the results depend on the processing

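The counts of members called kept within 1.5 times of their value under quantile normalization, normexp, every filter, the mean over probes, an unadjusted p, fits of the groups compared alone, and slide as a block (random, or fixed for C3/C2 minus NT, or slide 2 alone). The replicate block gave 5 members against NT for C3/C2, 5 for SN, 7 for TRAIL and 8 for either co-treatment, as without it, and changed no call of a member in any comparison.

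Without a minimum fold, members called became 9 for C3/C2 minus NT, 10 for SN minus NT and 10 for TRAIL+C3/C2 minus TRAIL. Of the 20703 genes, 13039, 14354 and 13597 passed in these. Members called became 8 for TRAIL+SN minus TRAIL, 7 for TRAIL+SN minus TRAIL+C3/C2, 7 for SN minus C3/C2 and 9 for TRAIL minus SN. Of all genes, 13919, 7789, 9814 and 13743 passed in these. For the interactions with C3/C2 and SN, 6 and 9 members passed, beside 596 and 4794 of all genes. With the array median and the authors' table alike, members called fell to 2 for TRAIL+SN minus TRAIL and rose to 6 for TRAIL minus SN. Of all genes, 2130 were then called higher and 2945 lower in the first, and 2582 and 2112 in the second. With the spike-in, members called were 2 for TRAIL+SN minus TRAIL, 3 for TRAIL+SN minus SN and 1 for the interaction with C3/C2. In these, 2220, 46 and 44 of all genes were called higher and 2707, 819 and 53 lower. The array median and the authors' table reversed RELA in C3/C2 minus NT (-0.24) and TRAIL+C3/C2 minus NT (-0.28), TNIP1 in C3/C2 minus NT (-0.038) and NFKB2 in TRAIL+C3/C2 minus TRAIL (-0.16). The spike-in reversed RELA in TRAIL+C3/C2 minus NT (-0.64), TRAIL+SN minus NT (-0.20), TRAIL minus SN (-0.19), TRAIL+C3/C2 minus C3/C2 (-0.53) and TRAIL+SN minus SN (-0.50). It also reversed NFKB2 in TRAIL+C3/C2 minus TRAIL (-0.16), NFKBIE (-0.057) and REL (-0.34) in TRAIL minus SN, and NFKB1 in the interaction with SN (-0.024). The cause of these was not tested, beyond the shift of all genes that each scaling makes.

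Leaving out 1 array at a time gave 5 to 6 members called for C3/C2 minus NT and for SN minus NT, 7 to 8 for TRAIL+C3/C2 minus NT and 6 to 7 for TRAIL+C3/C2 minus C3/C2, and moved no other count of members.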

Other observations

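In NFKBIA, replicates 3 and 4 lay above replicates 1 and 2 in each of the 5 treated groups, by the widest margin in C3/C2 (4.06 and 4.02 beside 3.44 and 3.33), and not in NT (2.44 and 2.33 beside 2.39 and 2.27). In BCL3 they did so in 5 of the 6 groups, NT (2.61 and 2.56 beside 2.45 and 2.36) and TRAIL (4.45 and 4.67 beside 4.16 and 4.16) among them, and not in TRAIL+C3/C2. In TNIP1 they lay below replicates 1 and 2 in 4 groups, SN, TRAIL and both co-treatments. At the probe that represents RELA they lay above replicates 1 and 2 in 4 groups, C3/C2, SN, TRAIL and TRAIL+SN. The remaining members showed no such order in as many as 4 of the 6 groups. The labels do not say which replicates came from the same experiment, so no comparison was made between them.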
